A study of Mus musculus with 2 samples.

Results

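Cholesterol and fatty acid synthesis genes were followed on 2 Affymetrix whole-genome mouse arrays, 1 for osteoblasts treated with PP1 and 1 for osteoblasts given its vehicle. The set lists 36 genes, which run from the supply of acetyl-CoA to cholesterol, to unsaturated fatty acids and to the regulators of both routes. All probe sets (groups of short probes against a transcript) that the platform annotation gives to exactly 1 of these genes were taken. That gave 82 of 45037 non-control probe sets, for 35 of the 36 genes. The acetoacetyl-CoA thiolase Acat2 had none and was not analysed here.

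Both cultures were primary mouse osteoblasts, cells that form bone, isolated from calvarial bones (of the skull) of CD1 mice aged 7 days. All cells were first starved for 24 h in medium with bovine serum albumin in place of serum. The PP1 culture then received PP1, an inhibitor of c-Src and related tyrosine kinases, at 2 µM for 24 h. The vehicle culture received DMSO for the same time. The question is how transcript levels in c-Src-inhibited osteoblasts compare with those in vehicle-treated ones. Each condition has a single array without replicates. No test between conditions was therefore possible, no p-value is given and the values describe these 2 arrays only.

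Cells make cholesterol and fatty acids from acetyl-CoA. The sterol route condenses acetyl-CoA to mevalonate, turns mevalonate into isoprenoid units, joins these to squalene and closes squalene into lanosterol, which is then trimmed to cholesterol. The genes of both routes are classic targets of the sterol regulatory element-binding proteins (SREBPs), transcription factors that are held in the endoplasmic reticulum when sterols are plentiful. SREBP-2 acts mainly on sterol genes and SREBP-1 mainly on fatty acid genes. SREBPs bind promoters together with the general factors NF-Y and Sp1. Osteoblasts, like other cells, need this synthesis for membranes and for the isoprenoid anchors of small GTPases.

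Promoter sequences show what many members share beside their place in the pathway. Promoters from RefSeq (build GRCm38.p6) were matched by symbol for 29 of the 36 genes, and the 250 bases before each annotated start were searched on both strands for 4 sets of letters. These were TCACNCCAC (the sterol regulatory element), CCAAT (bound by NF-Y), GGGCGG (bound by Sp1) and CACGTG (an E-box). The promoters of 5 members are printed 5′ to 3′ on the gene's strand, with every match in capitals, so that CCAAT read on the other strand appears as ATTGG and GGGCGG as CCGCCC. Hmgcs1 is shown because it alone among the 29 searched members held the letters of the sterol regulatory element. Mvk and Idi1 are shown as mevalonate pathway genes with repeated CCAAT letters, and Acss2 as the fatty acid member with the highest log2 ratio. Elovl6, also among the higher members, is shown because none of the 4 sets of letters lies in its window.
Hmgcs1, chr13:119690101-119690350, plus strand: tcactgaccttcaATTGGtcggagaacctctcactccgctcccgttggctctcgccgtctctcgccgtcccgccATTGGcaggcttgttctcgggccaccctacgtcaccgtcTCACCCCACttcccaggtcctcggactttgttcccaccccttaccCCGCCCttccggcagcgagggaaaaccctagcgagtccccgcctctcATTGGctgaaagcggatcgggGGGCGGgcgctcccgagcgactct
Mvk, chr5:114444019-114444268, plus strand: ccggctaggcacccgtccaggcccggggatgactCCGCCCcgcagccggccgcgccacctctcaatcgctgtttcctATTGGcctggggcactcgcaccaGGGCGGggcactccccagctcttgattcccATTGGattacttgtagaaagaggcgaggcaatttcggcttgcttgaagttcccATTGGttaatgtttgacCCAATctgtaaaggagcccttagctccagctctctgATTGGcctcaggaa
Idi1, chr13:8885356-8885605, plus strand: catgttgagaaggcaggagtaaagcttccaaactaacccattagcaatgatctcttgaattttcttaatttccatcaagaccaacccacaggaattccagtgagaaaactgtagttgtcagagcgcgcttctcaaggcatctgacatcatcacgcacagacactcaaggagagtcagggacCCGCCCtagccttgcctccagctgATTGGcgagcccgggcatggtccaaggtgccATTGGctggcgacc
Acss2, chr2:155517793-155518042, plus strand: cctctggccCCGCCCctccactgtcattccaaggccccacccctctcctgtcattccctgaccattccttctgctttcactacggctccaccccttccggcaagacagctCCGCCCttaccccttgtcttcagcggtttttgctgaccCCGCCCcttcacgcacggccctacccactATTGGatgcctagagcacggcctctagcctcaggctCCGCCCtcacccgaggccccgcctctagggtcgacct
Elovl6, chr3:129532136-129532385, plus strand: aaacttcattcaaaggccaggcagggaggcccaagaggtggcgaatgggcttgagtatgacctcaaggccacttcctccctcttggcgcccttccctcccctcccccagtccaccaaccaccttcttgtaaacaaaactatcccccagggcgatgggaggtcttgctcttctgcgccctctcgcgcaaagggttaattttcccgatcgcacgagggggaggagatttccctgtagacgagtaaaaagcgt

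In Hmgcs1 the sterol regulatory element began 137 bases before the annotated start, between CCAAT matches at 176 and 45 bases. Mvk held 5 CCAAT matches and Idi1 held 2, at 45 and 14 bases before the start. Acss2 held 1 CCAAT match and 4 GGGCGG matches. Of the 15 cholesterol synthesis enzymes with a promoter here, 14 had CCAAT in at least 1 window, which was 93.3% of these genes. The letters stood in 37.5% of all 27025 genes with a promoter and in 39.5% of the protein-coding ones. GGGCGG likewise stood in 14 of the 15 enzymes, in 35.4% of all genes and in 45.8% of the protein-coding ones. Among the fatty acid genes, CCAAT and GGGCGG each stood in 3 of 7 genes, or 42.9%. Counted by window, since some genes have several starts, CCAAT stood in 77.8% of the windows of the enzymes. It stood in 33.8% of all windows and in 35.4% of those of protein-coding genes. For GGGCGG these shares were 83.3%, 32.7% and 42.6%. The sterol regulatory element stood in 1 of 29 member genes, or 3.45%, and in 1.22% of all genes. CACGTG stood in 7 of the 29, or 24.1%, and in 6.86% of all genes. In the windows of the 5 printed genes no match overlapped another. A match is only a run of letters and does not show that a factor binds there. The lack of a match with these exact letters does not show that no factor binds.

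Signals are given after the PP1 array had been multiplied by 1.68, which gave the arrays equal means once 2% of probe sets had been trimmed at each end. A signal below 31.7, the median of all probe sets on both arrays, was set to that floor. A gene is represented by its brightest probe set, and its log2 ratio is PP1 minus DMSO. As deposited, the median over probe sets was 20.0 on the PP1 array and 29.7 on the DMSO array, so directions are relative to the bulk of genes. All 35 members with a probe set were above the floor on both arrays. With no replicate error to hand, the spread between probe sets was used as a scale. The SD of the log2 ratio between probe sets of a gene was 0.41 over 4745 genes, and 0.39 over the 23 members with several usable probe sets. It holds no variation between cultures. Fewer cells of a type and less RNA per cell cannot be told apart in such bulk samples.

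With PP1, most of the 35 measured members lay above the bulk of genes, and none was at least 1.5-fold lower. The members were chosen with earlier results of these data known, so their shares are not those of an independently chosen set. At least 1.5-fold higher were 10 members (28.6%), against 10.6% of all 12133 measured genes, and 0 were at least 1.5-fold lower, against 7.38% of all genes. At least 2-fold higher were Fdps, Acss2 and Lpin1 (8.57%), against 3.02% of all genes, and 0 were at least 2-fold lower, against 1.55%. All members but Tm7sf2 were at least 4 times as bright as the floor on both arrays. Among the 7428 genes that bright, 6.61% were at least 1.5-fold higher and 6.62% at least 1.5-fold lower. The log2 ratio was above 0 for 31 of 35 members, against 6195 of 12133 genes, with a median of 0.36 against 0.01. As deposited, with no scaling, 0 members were at least 1.5-fold higher, against 1.21% of all genes, and 11 (31.4%) at least 1.5-fold lower, against 60.6%, while the median of all genes was shifted to -0.71. Even so, 30 of the 35 members stayed above the median of all genes in that setting. More than 1 SD between probe sets above 0 were 15 members (42.9%), against 17.7% of all genes, and 0 lay as far below 0, against 14.2%.

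**Figure D1:**
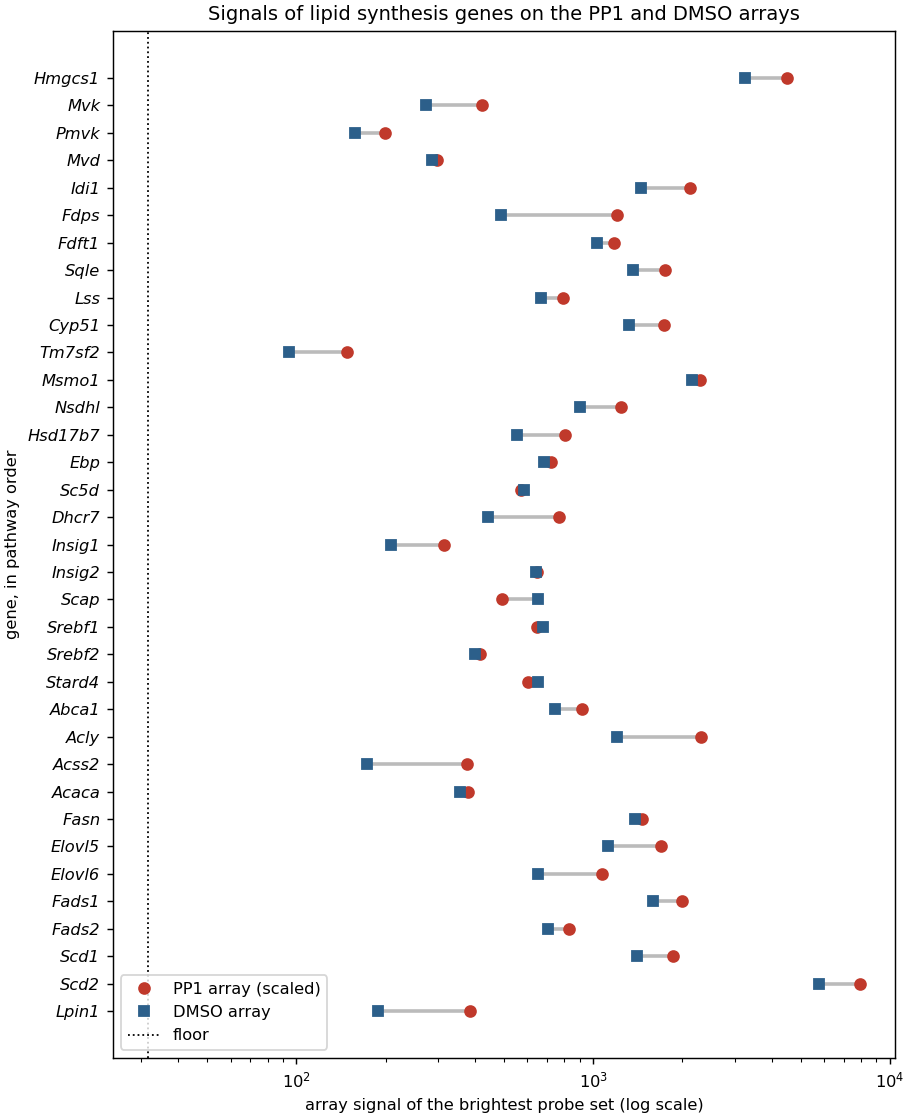
Array signal of the brightest probe set of each of 35 genes (horizontal log axis), in pathway order from top to bottom, with circles for the PP1 array after scaling, squares for the DMSO array and a dotted line at the floor of 31.7. The circle lies right of the square for 31 genes and left of it for Sc5d, Scap, Srebf1 and Stard4, relative to the bulk of genes; with the values as deposited most genes lie the other way.

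The mevalonate pathway had a median log2 ratio of 0.50 over 6 measured enzymes, all above 0. Its largest difference was at its last step. Farnesyl diphosphate synthase, Fdps, which joins isoprene units to farnesyl diphosphate, had a signal of 1203 on the PP1 array and 490 on the DMSO array. That made it 2.46-fold higher (log2 ratio 1.30), above 98.8% of measured genes, on its only probe set above the floor. HMG-CoA synthase, Hmgcs1, makes HMG-CoA, the precursor of mevalonate. Its brightest probe set had 4489.9 on the PP1 array and 3249 on the DMSO array, or 1.38-fold higher. All 5 Hmgcs1 probe sets were above 0, but their log2 ratios ran from 0.04 to 0.63. The brightest can bind related sequences, and without probe sets of that kind the value for Hmgcs1 was 0.04. Mevalonate kinase, Mvk, had 421 on the PP1 array and 274 on the DMSO array (1.53-fold higher), and the dimmer one stood at 1.05 on the log2 scale. Isopentenyl diphosphate isomerase, Idi1, makes the allylic unit that starts chain growth. It had 2112 on the PP1 array and 1450.2 on the DMSO array (1.46-fold higher), with both probe sets within 0.52 to 0.54.

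The remaining enzymes of the mevalonate pathway gave smaller or less settled values. Phosphomevalonate kinase, Pmvk, was measured by 1 probe set, with 199 on the PP1 array and 157 on the DMSO array (1.26-fold higher). For Mvd, which decarboxylates mevalonate diphosphate, the probe sets disagreed in size. Its brighter one, which the array maker marks as shared between transcripts, had 297 on the PP1 array and 287 on the DMSO array (log2 ratio 0.05). The other had 383 on the PP1 array and 176 on the DMSO array (log2 ratio 1.12). These 2 values differ by more than the SD between probe sets, so the size for Mvd depends on the probe set.

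Between farnesyl diphosphate and lanosterol the differences were small, with a median log2 ratio of 0.25 over 3 enzymes. Squalene epoxidase, Sqle, which carries out the first oxygen-requiring step, had 1746 on the PP1 array and 1361 on the DMSO array (1.28-fold higher). Lanosterol synthase, Lss, closes the sterol rings and had 794 on the PP1 array and 667 on the DMSO array (1.19-fold higher). That Lss probe set is marked as shared between transcripts, and the other one above the floor gave 0.52. Squalene synthase, Fdft1, commits farnesyl diphosphate to sterols and had 1175 on the PP1 array and 1031 on the DMSO array (1.14-fold higher). A second Fdft1 probe set, of the kind that can bind related sequences, had 631 on the PP1 array and 932 on the DMSO array, a log2 ratio of -0.56. The direction for Fdft1 therefore depended on the probe set. All 3 brightest values lay within 1 SD between probe sets of 0.

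From lanosterol to cholesterol, 7 of 8 enzymes lay above 0, with a median of 0.42. The highest was a final step, 7-dehydrocholesterol reductase (Dhcr7), with 766 on the PP1 array and 443 on the DMSO array, or 1.73-fold higher by its 1 probe set. The sterol 14-reductase Tm7sf2 followed at 1.57-fold, from dimmer signals of 148 on the PP1 array and 94.7 on the DMSO array. Hsd17b7, the 3-ketosteroid reductase, had 805.5 on the PP1 array and 553 on the DMSO array (1.46-fold higher), by a probe set that can bind related sequences. Its other 3 probe sets ran from 0.10 to 0.80, all above 0, 1 of them under the floor with DMSO. Nsdhl, which acts in the same removal of the C4 methyl groups, had 1239 on the PP1 array and 905 on the DMSO array (1.37-fold higher). Methylsterol monooxygenase, Msmo1, starts that removal and had 2296 on the PP1 array and 2155 on the DMSO array, a log2 ratio of 0.09.

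Lanosterol demethylase, Cyp51, stood at 0.39 by its brightest probe set, with 1735 on the PP1 array and 1322 on the DMSO array. Its other probe sets gave -0.12 and -0.07, so the direction for Cyp51 is not settled. The sterol isomerase Ebp had 721 on the PP1 array and 683.5 on the DMSO array (log2 ratio 0.08). Sc5d, which introduces the C5 double bond, had 571 on the PP1 array and 584 on the DMSO array, a log2 ratio of -0.03. The other Sc5d probe sets were at 0.27 and, from signals close to the floor, 0.72. Differences among the late enzymes thus spanned near 0 for Msmo1, Ebp and Sc5d up to 0.79 for Dhcr7.

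The 17 measured cholesterol synthesis enzymes had a median log2 ratio of 0.39, with 16 above 0 (94.1%, against 51.1% of all measured genes). At least 1.5-fold higher were 4 enzymes (23.5%), against 10.6% of all measured genes, and 0 were at least 1.5-fold lower, against 7.38%. Their median lay 0.38 above that of all measured genes, and 0.35 above it with the values as deposited, where the median itself was -0.36. Their summed signal was 20718 on the PP1 array and 15706 on the DMSO array.

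**Figure D2:**
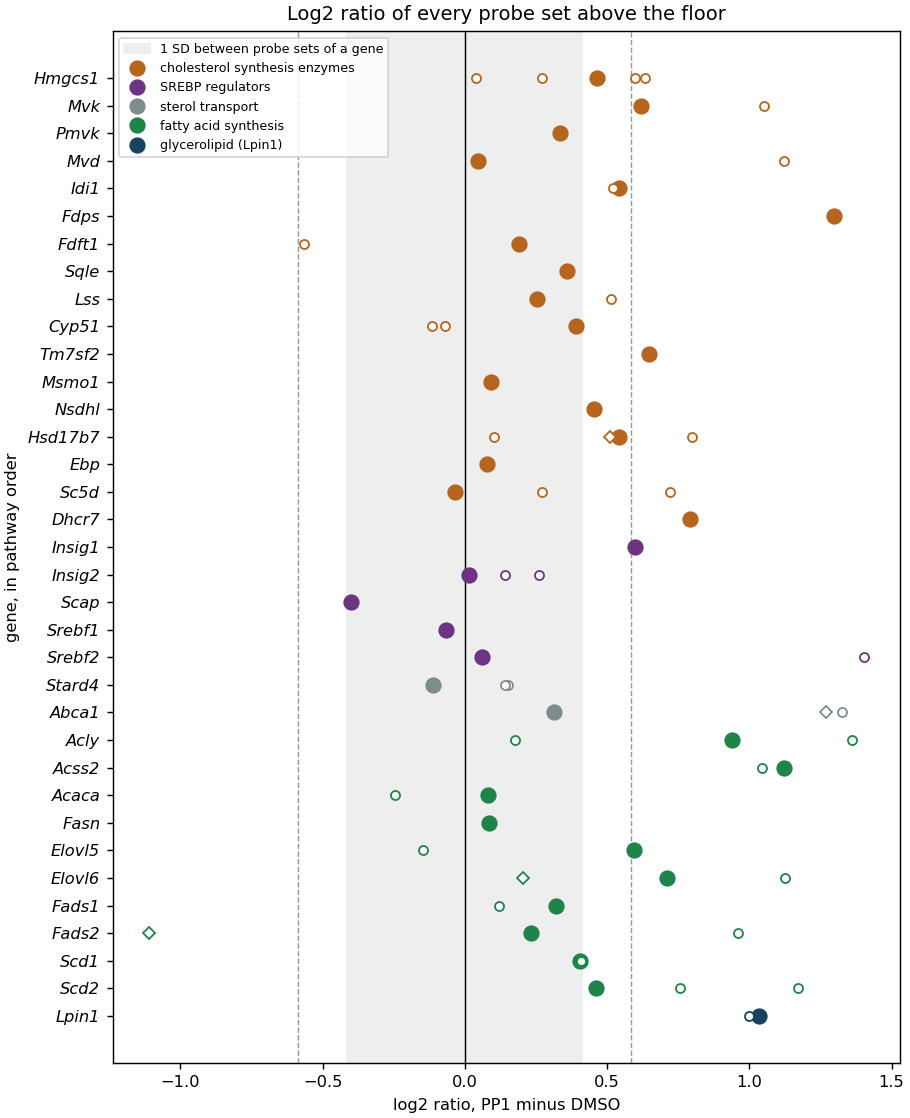
Log2 ratio, PP1 minus DMSO (horizontal axis), of every probe set above the floor on at least 1 array, by gene in pathway order; large filled points are the brightest probe set, small open points the others, diamonds those under the floor on 1 array, the grey band is 1 SD between probe sets of a gene (0.41) and dashed lines mark 1.5-fold. Probe sets of Idi1, Acss2, Scd1 and Lpin1 lie close together, while those of Mvd, Srebf2, Abca1, Acly and Fads2 lie far apart; zero on this axis moves with the scaling, and as deposited the median of all genes is -0.71.

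The SREBPs and the proteins that control them lay on both sides of the bulk of genes, from -0.40 for Scap to 0.60 for Insig1, with 3 of 5 above 0 and a median log2 ratio of 0.02. Insig1 and Insig2 hold the SREBP complex in the endoplasmic reticulum. Insig1, itself a well-known SREBP target, had 314 on the PP1 array and 208 on the DMSO array (1.51-fold higher, 1 probe set). Insig2 had 647 on the PP1 array and 640.4 on the DMSO array, with its 3 probe sets between 0.02 and 0.26. Scap escorts SREBPs to the Golgi for cleavage. It had 494 on the PP1 array and 652 on the DMSO array, a log2 ratio of -0.40 and the lowest of all members by brightest probe set. Srebf1, which encodes SREBP-1, had 649 on the PP1 array and 678 on the DMSO array (log2 ratio -0.06). For Srebf2, which encodes SREBP-2, the probe sets disagreed. The brighter had 417 on the PP1 array and 399 on the DMSO array (log2 ratio 0.06), and the other had 503 on the PP1 array and 190 on the DMSO array (log2 ratio 1.40). Both lay above 0, but the size for Srebf2 depends on the probe set.

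Sterol transport was represented by Stard4, a cytosolic sterol carrier, and Abca1, which exports cholesterol and is known as a target of the oxysterol receptor LXR. Stard4 had 604 on the PP1 array and 654 on the DMSO array, with its 3 probe sets from -0.11 to 0.15. Abca1 had 919.7 on the PP1 array and 741 on the DMSO array by its brightest probe set, 1.24-fold higher. The other Abca1 probe sets were dimmer and gave larger differences, 1.32 from signals of 171 on the PP1 array and 68.4 on the DMSO array, and at least 1.27 where DMSO was under the floor. All 3 placed Abca1 above 0, with the size depending on the probe set.

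Among fatty acid genes, the suppliers of acetyl-CoA stood highest and the chain-building enzymes lay close to 0. Acetyl-CoA synthetase, Acss2, makes acetyl-CoA from acetate and had 375 on the PP1 array and 172 on the DMSO array, 2.17-fold higher. Its second probe set gave 294 on the PP1 array and 142 on the DMSO array, a log2 ratio of 1.04. ATP citrate lyase, Acly, makes cytosolic acetyl-CoA from citrate and had 2305 on the PP1 array and 1201 on the DMSO array (1.92-fold higher). The other Acly probe sets ran from 0.18, by one that can bind related sequences, to 1.36. Acetyl-CoA carboxylase, Acaca, commits acetyl-CoA to fatty acids and had 378 on the PP1 array and 357 on the DMSO array (1.06-fold). A dim second Acaca probe set gave -0.25. Fatty acid synthase, Fasn, had 1464 on the PP1 array and 1382 on the DMSO array, also 1.06-fold. By brightest probe set the log2 ratios were thus 1.12 for Acss2 and 0.94 for Acly, and 0.08 for both Acaca and Fasn.

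The elongases, which add carbon units to finished chains, were both at least 1.5-fold higher by their brightest probe sets. Elovl6, which extends palmitate to stearate, had 1071 on the PP1 array and 654 on the DMSO array (1.64-fold higher). A second probe set gave 308 on the PP1 array and 141 on the DMSO array (log2 ratio 1.12), and another, under the floor with DMSO, at least 0.20. Elovl5, which extends polyunsaturated chains, had 1687 on the PP1 array and 1118 on the DMSO array (1.51-fold higher). Its other probe set, of the kind that can bind related sequences, gave -0.15, so the direction for Elovl5 depended on the probe set.

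The 4 desaturases, which insert double bonds, lay between 0.23 and 0.46 by their brightest probe sets, none at least 1.5-fold different. Scd1 and Scd2 make monounsaturated fatty acids. Scd1 had 1862 on the PP1 array and 1407 on the DMSO array (1.32-fold higher), with both probe sets at 0.40 to 0.41. Scd2 had 7921 on the PP1 array and 5751 on the DMSO array (1.38-fold higher), with 0.75 and 1.17 by its dimmer probe sets. Fads1 and Fads2 desaturate polyunsaturated chains. Fads1 had 1990.0 on the PP1 array and 1595 on the DMSO array (1.25-fold higher). Fads2 had 831 on the PP1 array and 706 on the DMSO array (1.18-fold higher). Its other probe sets gave 0.96 and, where PP1 was under the floor and the probe set can bind related sequences, -1.11 as a bound, the only member probe set at least 2-fold lower. The phosphatidate phosphatase Lpin1, which makes diacylglycerol, had 386 on the PP1 array and 189 on the DMSO array (2.05-fold higher). The second stood at 1.00 on the log2 scale, so both Lpin1 probe sets lay close to 2-fold.

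The 10 fatty acid genes were all above 0, with 4 (40.0%) at least 1.5-fold higher, against 10.6% of all measured genes. Their median log2 ratio of 0.43 lay 0.42 above the median of all genes. As deposited it lay 0.39 above, where their median itself was -0.32. Agreement between probe sets was examined in the 23 members with several above the floor. All their probe sets were above 0 for 16 members (69.6%), against 29.2% of 5488 such genes. All were below 0 for 0 members, against 19.7%. The other 7 members had probe sets on both sides of 0, and 12 further members rested on 1 probe set. In all, 62 of 72 member probe sets above the floor lay above 0 (86.1%), against 55.1% of the 21219 such probe sets of all genes. At least 1.5-fold higher were 26 (36.1%), against 13.9%, and 1 was at least 1.5-fold lower (1.39%), against 7.1%. The remaining 10 of the 82 probe sets were under the floor on both arrays.

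**Figure D3:**
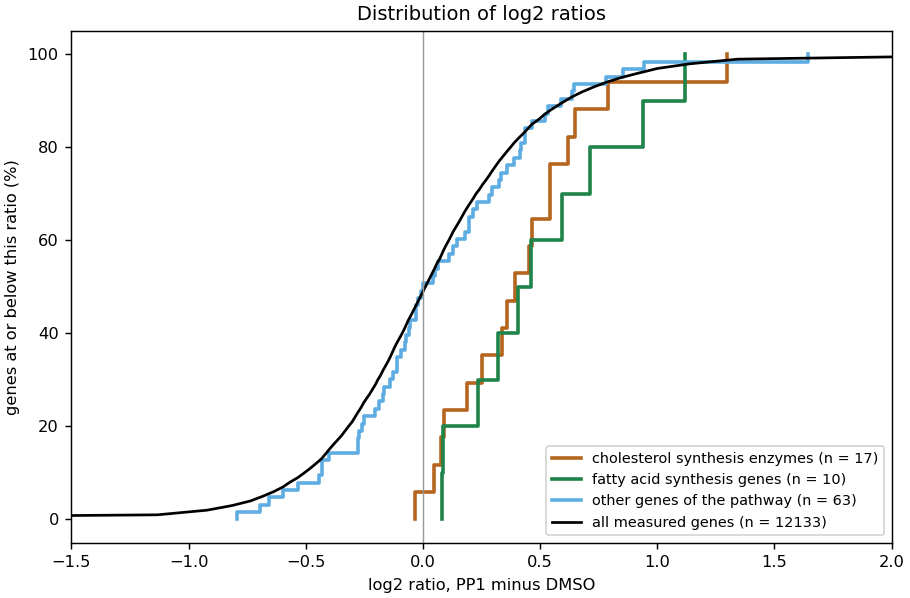
Cumulative share of genes (vertical axis, percent) at or below each log2 ratio, PP1 minus DMSO (horizontal axis), for 17 cholesterol synthesis enzymes, 10 fatty acid synthesis genes, 63 other genes of the pathway and all 12133 measured genes. The curves of both member groups lie right of the curve of all genes over most of its range, with medians of 0.39 and 0.43 against 0.01, and the curve of the other pathway genes follows that of all genes.

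Other genes of lipid metabolism, listed by function, lay close to the bulk of genes. Of 63 measured, 32 lay above 0, with a median of 0.00. At least 1.5-fold higher were 7 (11.1%), against 10.6% of all measured genes, and 4 were at least 1.5-fold lower (6.35%), against 7.38%. The values named here, apart from Tecr, were chosen after they had been seen. In the wider sterol and isoprenoid list, 5 of 9 genes lay above 0 with a median of 0.11. Its only gene at least 1.5-fold higher was Erg28, a scaffold for the enzymes that remove the C4 methyl groups, with 1199 on the PP1 array and 623 on the DMSO array (1.93-fold higher). That was 11.1% of the list, near the 10.6% of all measured genes. Among 15 genes of SREBP processing and of sterol uptake and storage, 10 lay above 0, none was 1.5-fold different and the median was 0.13.

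Of the 9 LXR targets and regulators, the oxysterol receptor Nr1h3 (1.55-fold, from dim signals) and the lipoprotein Apoe (1.72-fold) were higher. The receptor partner Rxrb was 1.57-fold lower, and the list had a median of 0.15. At least 1.5-fold higher were thus 22.2% of the list, against 10.6% of all measured genes, and 11.1% were that much lower, against 7.38%. Further genes of fatty acid synthesis, elongation and activation leaned the other way by brightest probe set, with 13 of 18 below 0 and a median of -0.12. Of these, Elovl1, Elovl4, Elovl7, Fads3, Hsd17b12, Hacd2, Hacd3, Acsl4 and Aacs each had another probe set above 0. Those of Hacd1 and Me1 were all below 0, and Slc25a1 and Mid1ip1 rested on 1 probe set. The lean therefore depended on the probe set. Tecr, the reductase of the last elongation step, had 2772 on the PP1 array and 889 on the DMSO array. It was 3.12-fold higher, with 0.72 by its other probe set. The lipogenic regulator Thrsp was 1.80-fold higher, a lower bound as it was under the floor with DMSO. Lower by at least 1.5-fold were the desaturase relative Fads3 (log2 ratio -0.79, or up to 0.14 among its probe sets), the dehydratase Hacd1 (-0.70) and, as a bound, Elovl7 (-0.60). In this list 16.7% were thus at least 1.5-fold lower, against 7.38% of all measured genes, and 11.1% that much higher, against 10.6%. The other Elovl7 probe set above the floor gave 0.545, so its direction is not settled. In glycerolipid synthesis, 8 of 13 genes lay above 0 with a median of 0.29. The acyltransferase Gpat4 (1.56-fold higher) and, as a bound, Lpin3 (log2 ratio 0.59) were the ones at least 1.5-fold higher. They made up 15.4% of the list, against 10.6% of all measured genes.

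Markers of other cell types and control signals also differed between the arrays. Of 10 osteoblast markers, 7 were measured, 3 above 0 and 4 below, with a median log2 ratio of -0.12. The collagen genes Col1a1 (log2 ratio 0.39) and Col1a2 (0.52, but down to -0.91 among its probe sets) and the phosphatase Alpl (0.37) lay above 0. The matrix protein Ibsp had 37.7 on the PP1 array and 159 on the DMSO array, 4.22-fold lower and the only one past 1.5-fold. Sp7 (-0.43), Pth1r (-0.23) and Postn (-0.12) also lay below 0, and Runx2, Bglap and Spp1 were not analysed here. Of 10 adipocyte markers, 5 were measured, all above 0 with a median of 0.56, and their summed signal was 7659 on the PP1 array and 4191 on the DMSO array. Lpl was 2.49-fold higher, with 4022 on the PP1 array and 1614 on the DMSO array, and Pparg was 1.57-fold higher. Fabp4 (log2 ratio 0.56), Cebpa (0.33) and Adipoq (0.24) differed by less than 1.5-fold, and Cidec, Lep and Retn were under the floor on both. Adipocytes also express many of the lipid synthesis genes, and the part of these cells in the members' values was not tested. All 9 macrophage markers were measured, 5 above 0, with a summed signal of 16465 on the PP1 array and 13915 on the DMSO array and a median log2 ratio of 0.10. They went both ways. Mrc1 was 2.16-fold higher, with 945 on the PP1 array and 437 on the DMSO array, and Cd68 was 1.66-fold higher. C1qb was 1.695-fold lower (log2 ratio -0.76, from -1.16 to -0.17 among its probe sets), and C1qa lay at -0.56. The other macrophage markers lay between -0.01 and 0.40. The endothelial markers were at the floor or close to it, with 3 of 5 measured and none over 55.2 on either array. The 3' over 5' signal of control transcripts, which reflects RNA quality, was on the log2 scale 0.19 on the PP1 array and 0.70 on the DMSO array for Gapdh. It was 1.46 on the PP1 array and 1.80 on the DMSO array for Pcx, and 0.69 on the PP1 array and 0.55 on the DMSO array for Actb, so it was lower with PP1 for 2 of the 3 controls. The part of RNA quality in the members' values was not tested.

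**Figure D4:**
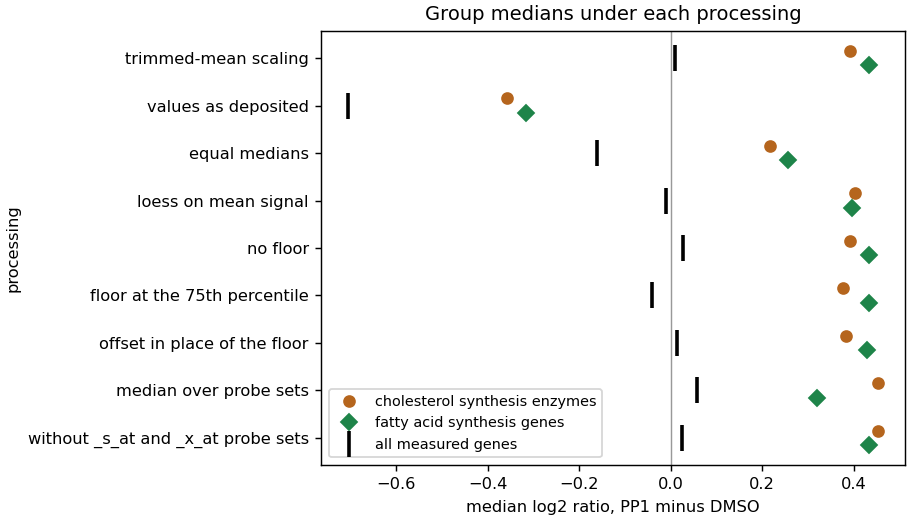
Median log2 ratio, PP1 minus DMSO (horizontal axis), of the cholesterol synthesis enzymes (circles), the fatty acid synthesis genes (diamonds) and all measured genes (bars), 1 row per way of processing. Both groups lie right of all genes in every row, by 0.26 to 0.47, but with the values as deposited all 3 medians are below 0.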

How the data were processed

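Total RNA was labelled as biotinylated cRNA by the array maker's procedure and hybridised to 1 array per condition, per the labels' protocols. The deposited values are linear signal intensities per probe set made with MAS5, per the submitters' processing notes; no version and no target scaling is named in them. Of 45037 non-control probe sets, 34945 have 1 gene, 932 have several and 9160 are unnamed here; symbols were updated by gene identifier through RefSeq (GRCm38.p6) for 34741.

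The PP1 array was scaled by 1.68, signals under 31.7 were set to that floor, log2 was taken and each gene took the brightest of its probe sets by mean log2 signal. The steps were tested on simulated data. Groups were compared by size only, at 1.5-fold and 2-fold, and the number of arrays limits the precision. The members, lists and letters searched in promoters were chosen with earlier results of these data known. All members are named. Other genes of the lists are named at 2-fold or by choice, as stated. Alternatives were the values as deposited, equal medians, loess (span 0.3), a floor at the 75th percentile or none, and an offset in place of the floor. Others were the median over probe sets, and leaving out probe sets marked as shared or as able to bind related sequences. Python 3.11.15, numpy 2.4.6, scipy 1.17.1, pandas 2.3.3, statsmodels 0.14.6 and matplotlib 3.10.9 were used.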

Additional observations from a re-analysis of the deposited data

How the results depend on the processing

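The medians of the cholesterol synthesis enzymes and of the fatty acid genes lay above that of all measured genes under all 8 alternatives, by 0.35 to 0.43 and by 0.26 to 0.47. The count of members at least 1.5-fold higher was 10, and it was 0 with the values as deposited, 5 with equal medians, 6 with an offset in place of the floor, and 9 to 13 under the other 5. The share of all genes was 10.6%, and 1.21%, 6.58% and 6.23% in those settings. Under the other 5 it was 6.47% to 11.8%, apart from 20.1% with no floor, where 28.6% of members were that much higher. At least 2-fold higher were 3 members (8.57%), and 0, 1 and 1 with the values as deposited, equal medians and the offset. The share of all genes at least 2-fold higher was 3.02%, and 0.406%, 1.85% and 1.19% in those settings. With the values as deposited, 11 members (31.4%, against 60.6% of all genes) were at least 1.5-fold lower, where scaling gave 0. In that setting 1 member, Scap (log2 ratio -1.15), was at least 2-fold lower, where scaling gave 0. The share of all genes at least 2-fold lower was not counted there, so this count cannot be set against it. That setting lowers every log2 ratio through the array scale, and the medians of all genes were -0.71 as deposited and -0.16 with equal medians. Of the members at least 1.5-fold higher, Mvk (-0.13), Tm7sf2 (-0.10), Insig1 (-0.15), Elovl5 (-0.15) and Elovl6 (-0.037) were then below 0. Values of single genes shifted by more than the SD between probe sets for Mvd, Cyp51, Srebf2 and Abca1 with the median over probe sets. Without probe sets marked as shared or as able to bind related sequences, they did so for Hmgcs1 (0.04) and Mvd (1.12). These shifts came from which probe sets gave the gene value. Why the probe sets of a gene differ was not tested. No paired analysis was possible because each group has 1 array, and for the same reason no replicate could be left out.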
